A study of Gallus gallus with 12 samples.

Results

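The genes described here are 200 abundant genes that HD3 erythroblasts and primary fibroblasts both contained and that neither kind of chicken red blood cell was listed with. They were chosen from the tables the authors deposited, 1 per cell type, which together hold 13889 genes. Of 10303 genes in the erythroblast table and 13451 in the fibroblast table, 9899 were in both, and 8307 of those were in neither red blood cell table. An erythroblast mean at or below the fibroblast mean left 7794 candidates, and the 200 with the highest erythroblast mean of 3 replicates were taken. Levels in both cell types therefore chose these genes, and so did their absence from the red blood cell tables. Those values are given as a description and support nothing.

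The series measured total RNA, after removal of ribosomal RNA, by stranded sequencing of 12 wild-type chicken samples, 3 in each of 4 groups. The groups were red blood cells taken from hens aged 28 to 38 weeks (aRBC), red blood cells taken from embryos at day 10 (eRBC), the cultured HD3 line and primary fibroblasts in culture. HD3 is 1 line of erythroid precursors transformed by avian erythroblastosis virus, so its replicates are samples of 1 line. The labels do not say whether replicates came from separate cultures, embryos or hens.

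Birds keep the nucleus in their circulating red blood cells. As erythroblasts mature, the chromatin condenses, transcription of most genes declines, and the remaining RNA comes to be dominated by a small set of red cell transcripts such as the globins. Genes that a dividing precursor and an unrelated cell such as a fibroblast both express strongly include many with general cellular functions. Whether such genes are listed in red blood cells is described here. The samples hold no maturation series, so loss of these genes during maturation was not followed. The files identify genes by Ensembl ID and do not pair IDs with names, so functions, positions and sequences of the 200 genes are not given, and the labelled cell types could not be checked against marker genes.

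Values are FPKM, the fragments counted on a gene set against the length of the gene and the number of fragments in the library, multiplied by the authors with a factor for cell number. They are called scaled FPKM here. The lowest deposited mean was at or just above 0.3 in every table, so 0.3 was taken as the cutoff below which a gene was left out. A gene missing from a table is thus taken to be below 0.3 on the scaled FPKM of that cell type and is not shown to be at 0. In whole-cell RNA of a sample, less RNA per cell and fewer cells that hold the RNA cannot be told apart.

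Whole reads and gene lengths could be worked out from the FPKM values for all 200 genes. Reads on listed genes numbered 2916238 to 9541884 in aRBC libraries, 6454390 to 17808106 in eRBC, 9051846 to 19379169 in erythroblasts and 8853451 to 23384464 in fibroblasts. The median member had between 2834 and 5170.5 reads per erythroblast library and between 1031.5 and 4183.5 per fibroblast library. The lowest count for any of them was 8 reads, and 7 genes had under 100 reads in at least 1 library, each of them shorter than 500 bp. Recovered lengths are lower estimates for single genes, and so are the reads, which were worked out with those lengths. A length recovered too short gives too few reads as well.

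In each of these cell types 1 library stood apart from the other two. Across the 200 genes, Pearson's r of log2(scaled FPKM + 1) was 0.352 and 0.384 between erythroblast replicate 1 and replicates 2 and 3, which had 0.993 with each other. By Spearman's rho these 3 pairs had 0.175, 0.198 and 0.986. Among fibroblasts the pairs that included replicate 2 had r of 0.829 and 0.822, and the pair without it 0.991. Erythroblast replicate 1 was the shallowest erythroblast library and fibroblast replicate 2 the deepest of all, and the part of depth in these differences was not tested. These are correlations across genes, which are not independent replicates, so they describe the libraries at these 200 genes only. The rule chose the genes by the mean of the same erythroblast columns. Their means had quartiles of 17.8 and 28.1 in erythroblasts and 42.0 and 127 in fibroblasts. A narrow range can lower r, and its part was not tested. The median coefficient of variation in erythroblasts was 25.2% for the members and 25.1% for all listed genes. Several of the results that rest on these libraries are given with and without them.

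All 200 genes were lower on average in erythroblasts than in fibroblasts, which the rule requires. Their median was 24.8, 21.2 and 21.1 in erythroblast replicates 1 to 3, against 59.2, 93.6 and 54.3 in fibroblast replicates 1 to 3. Single genes ran from 3.14 to 324 over the erythroblast libraries and from 7.78 to 3223 over the fibroblast libraries. By their means the genes spanned 15.5 to 294 in erythroblasts, with a median of 22.1, and 17.4 to 2329 in fibroblasts, with a median of 68.6. All listed genes had a median of 2.55 in the erythroblast table and 8.90 in the fibroblast table. So the 200 genes were well above the typical gene of each table, as their selection by level requires.

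**Figure D1:**
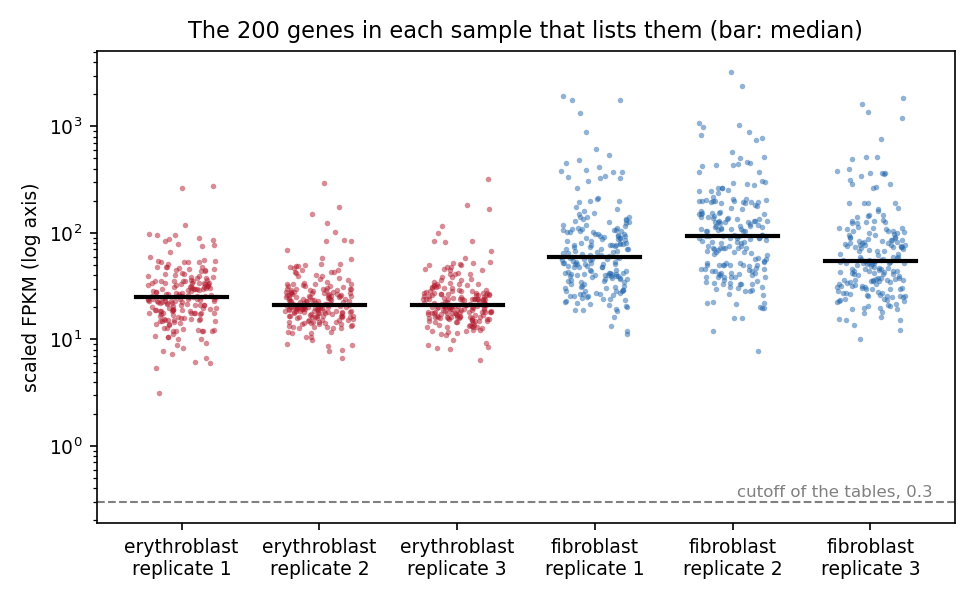
Scaled FPKM (log axis) of the 200 genes in the 3 erythroblast and 3 fibroblast samples, 1 point per gene, with the sample median as a bar. Medians lie at 21.1 to 24.8 in erythroblasts and 54.3 to 93.6 in fibroblasts, and every point is above the cutoff of 0.3, drawn as a dashed line.

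The list thinned out gradually at its lower end. The last 3 genes inside had erythroblast means of 15.58, 15.57 and 15.52 scaled FPKM, and the first 3 outside had 15.46, 15.45 and 15.43. On the other limit, equality with fibroblasts, the 3 members nearest to it had erythroblast-to-fibroblast ratios of 0.999, 0.980 and 0.975. The nearest genes of like level on the other side had ratios of 1.03, 1.05 and 1.06. Neither limit fell at a gap in the values.

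The gene with the highest erythroblast level, ENSGALG00000002197, has a recovered length of 1520 bp and ranked 41 in the erythroblast table. It had 261, 296 and 324 scaled FPKM in erythroblast replicates 1 to 3, against 261, 1071 and 266 in fibroblast replicates 1 to 3. The erythroblast values were close to one another and to the lower pair of fibroblast values, and only fibroblast replicate 2 was far higher. Its mean was 294 ± 31.4 in erythroblasts and 533 ± 466 in fibroblasts (SD, n = 3 each), a ratio of 0.551. Without fibroblast replicate 2 the fibroblast mean was 263 and the ratio 1.12, so that its membership rested on that 1 library.

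ENSGALG00000004184, of 2137 bp, showed the lowest erythroblast level relative to fibroblasts. It had 32.4, 18.4 and 18.8 scaled FPKM in erythroblasts, against 1756, 2381 and 1614 in fibroblasts, with no overlap. Its mean was 23.2 ± 8.0 in erythroblasts and 1917 ± 408 in fibroblasts (SD, n = 3 each), 82.6-fold lower in erythroblasts. The next lowest were 2 short genes of 417 and 450 bp, at ratios of 0.0215 and 0.0347. These 3 genes were abundant in fibroblasts. On the scale per cell they stood at ranks 94, 90 and 46 among the 200 in erythroblasts.

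At the other end ENSGALG00000015105, of 1740 bp, was level in the 2 cell types. It had 18.6, 17.2 and 16.3 scaled FPKM in erythroblasts, against 18.3, 15.9 and 17.9 in fibroblasts. ENSGALG00000032590, of 2491 bp, had 38.1, 43.0 and 42.4 in erythroblasts, against 40.8, 51.8 and 34.1 in fibroblasts. The replicates of both genes overlapped between the cell types, and their ratios were 0.999 and 0.975. Their coefficients of variation in erythroblasts were 6.74% and 6.48%.

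Among the other most abundant members, the second by erythroblast mean had 276, 149 and 168 scaled FPKM in erythroblasts, against 1934, 3223 and 1830 in fibroblasts, and so was far higher in every fibroblast library. The third had 96.2, 174 and 181 in erythroblasts, against 375, 1025 and 360 in fibroblasts. The next had 86.7, 125 and 117 in erythroblasts, against 132, 370 and 111 in fibroblasts. In these last 2 genes, as in the first, fibroblast replicate 2 was far above the other fibroblast values, and in the last the cell types overlapped. Only 4 of the 200 genes had an erythroblast mean of at least 100, and 15 had at least 50. The 77 genes under 20 made up 38.5% of the list.

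The rule set erythroblasts against fibroblasts, so the size of that difference is a description. The median gene was 2.83-fold lower in erythroblasts, with quartiles of 1.89-fold and 4.56-fold. Of the 200, 146 had at most 0.5 of the fibroblast mean, 67 at most 0.25 and 12 at most 0.1, while 8 were above 0.9. Shares of all genes at these ratios are not given here. The median log2 ratio of means was -1.5 over the members and -2.08 over all 9899 genes in both tables. The latter had quartiles of -2.84 and -1.34. The median member was thus less reduced than the median gene. The rule kept genes that were high in erythroblasts, so nothing is read from this. In 153 genes (76.5%) all 3 erythroblast values lay below all 3 fibroblast values. The same held for 84.8% of all 9899 genes in both tables. In the remaining 47 the replicates of the cell types overlapped. Without erythroblast replicate 1 the median was 3.32-fold and without fibroblast replicate 2 it was 2.23-fold. Genes with at most 0.5 of the fibroblast mean then numbered 153 and 116. The genes without overlap then numbered 170 and 158, against 87.8% and 87% of all genes in both tables, and fewer libraries make overlap less likely.

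A limma fit took in the 9442 genes present in both tables whose mean reached 1. In it a gene was called lower at a Benjamini-Hochberg adjusted p under 0.05 and a log2 fold change of -1 or lower on log2(scaled FPKM + 1). This called 132 of the 200 (66.0%), against 78.5% of all genes tested. The rule used this contrast and kept genes that were high in erythroblasts, so nothing is read from the lower share. It also made a higher call of a member unlikely, and 0 were called higher. The median log2 fold change was -1.42 over the members and -1.73 over all genes tested. Without fibroblast replicate 2, 113 members (56.5%) were called lower, against 76.8% of all genes tested. Without erythroblast replicate 1, 130 (65%) were, against 77.8%.

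Ordered by ratio, the 2 ends of the list were close in erythroblast level and apart in fibroblast level. The choice of genes favours this pattern. Their erythroblast means lay close together, with quartiles of 17.8 and 28.1, and the rule set only a lower limit on the fibroblast mean. The 50 genes with the lowest ratios, 4.62-fold to 82.6-fold lower in erythroblasts, had a median of 23.5 scaled FPKM in erythroblasts and 166 in fibroblasts. The 50 nearest to equality, at most 1.88-fold lower, had a median of 21.5 in erythroblasts and 31.9 in fibroblasts. Their median lengths were 2063 and 1991.5 bp. Across the 200 genes the ratio went with the fibroblast mean at a Spearman's rho of -0.856, where the fibroblast mean is part of both measures. Length and ratio had a rho of 0.0205.

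**Figure D2:**
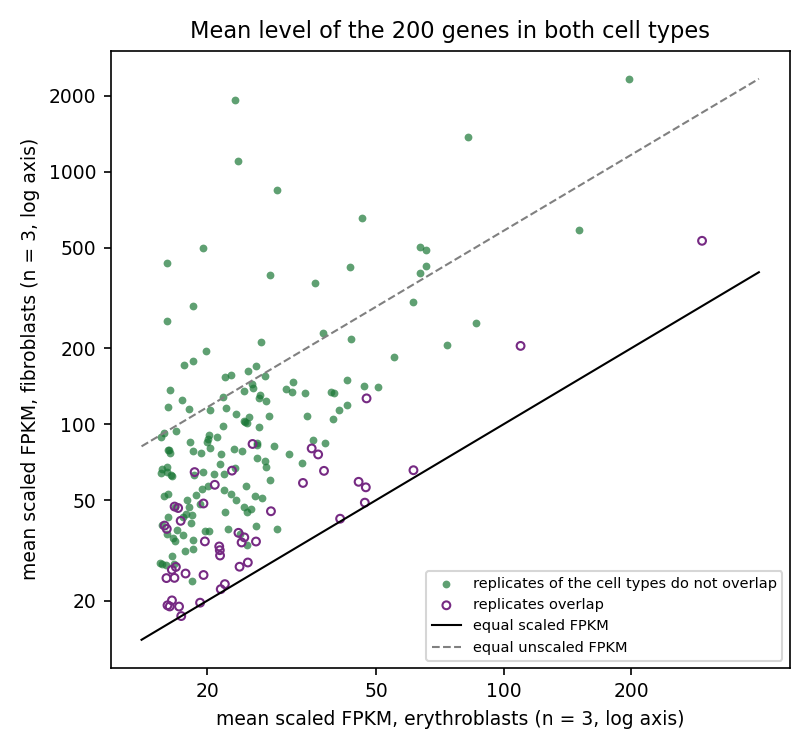
Mean scaled FPKM of the 200 genes in erythroblasts (x axis, n = 3) and fibroblasts (y axis, n = 3), both log axes. Filled points are the 153 genes whose replicates do not overlap between the cell types and open points the other 47. The rule keeps points on or above the solid line of equality, and 169 lie below the dashed line, where the unscaled level is higher in erythroblasts.

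The direction depended on the scale per cell. The recovered read constants gave library totals within 0.000444 of a whole number in fibroblasts, so their cell-number factor was taken as 1. The search required a near-whole total of replicate 1. It did not require this of replicates 2 and 3, which were 8.88e-05 and 0.000444 from a whole number. In erythroblasts the reads on listed genes set a lower bound of 0.171 for the factor, if all replicates share 1 factor. A second estimate, which adds the unlisted genes at the cutoff, was 0.174. The same estimate was 0.977 in fibroblasts, where 1 was taken, so it is not an upper limit. Dividing by the lower bound gives an unscaled FPKM, a level relative to the library and not to the cell. On unscaled FPKM the mean of 169 of the 200 genes (84.5%) was higher in erythroblasts than in fibroblasts, against 67% of all 9899 genes in both tables, and 31 were lower. With the second estimate the count was 168. With the lower bound it was 158 without erythroblast replicate 1 and 172 without fibroblast replicate 2. Shares over all genes without these libraries are not given here.

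With the second estimate of the factor, all 3 unscaled erythroblast values lay above all 3 fibroblast values in 106 genes (53.0%). The same held for 42.1% of all genes in both tables. With the lower bound, all 3 erythroblast values lay below all 3 fibroblast values in 15 genes (7.5%), against 16.6%. The median log2 ratio of unscaled means was 1.04 over the members and 0.464 over all genes in both tables. Over the members it was 0.81 without erythroblast replicate 1 and 1.39 without fibroblast replicate 2, and the medians of all genes without these libraries are not given here. ENSGALG00000015105, level on the scale per cell, was 5.83-fold higher in erythroblasts on unscaled FPKM. ENSGALG00000004184 was lower there on both scales, at an unscaled ratio of 0.0707. The rule picked the members for a high erythroblast level, so nothing is read from these shares.

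The fits that take out the overall level moved the calls in the same way. With equal sums per sample 16 members were called lower in erythroblasts (all genes tested 16.2%) and 42 higher (11.2%). After subtraction of each sample's median 19 were lower (12.9%) and 39 higher (16.3%). Limma voom on the recovered reads, added after seeing the data, called 14 lower (15.9%) and 67 higher (18.4%). The whole distribution moved with the scale, the median of all genes tested being -1.73 as deposited, -0.12 with equal sums and 0.14 after centring.

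The 200 genes together held a similar mean share of the summed scaled FPKM of listed genes in both cell types. The cell-number factor cancels in this share, though it bears on which genes reach the cutoff and are summed. The share was 6.77%, 4.30% and 4.2% in erythroblast replicates 1 to 3, against 5.17%, 6.11% and 4.59% in fibroblast replicates 1 to 3. Erythroblast replicate 1 lay above all 3 fibroblast samples, and erythroblast replicates 2 and 3 lay below them. The means were 5.09% ± 1.46 in erythroblasts and 5.29% ± 0.766 in fibroblasts (SD, n = 3 each). The rule chose the genes for a high erythroblast level, so these shares are a description. Without erythroblast replicate 1 the erythroblast mean was 4.25%, and without fibroblast replicate 2 the fibroblast mean was 4.88%. The 10 highest genes of a sample took 24.4%, 41.8% and 43.4% of the sum in erythroblast replicates 1 to 3 and 29.0% to 33% in fibroblasts. With those 10 set aside, the share of the 200 genes was 7.92% ± 0.896 in erythroblasts and 7.66% ± 1.04 in fibroblasts (SD, n = 3 each).

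The summed level itself was 6358, 5607 and 5638 scaled FPKM in erythroblasts, against 25561, 35110 and 23326 in fibroblasts. The sum was spread over many genes in erythroblasts, where the 10 highest of the 200 made up 20.3% of it. In fibroblasts the 10 highest made up 36.9%. Counted in reads, which do not correct for length, the 200 genes took 8.04%, 7.05% and 7.03% of the reads on listed genes in erythroblasts, against 5.35%, 7.35% and 4.86% in fibroblasts. Fibroblast replicate 2 lay within the range of the erythroblast values.

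By the rule, all 200 genes were in neither red blood cell table, which was taken to mean below the cutoff of 0.3 in both. On that cutoff each gene was at least 51.7-fold lower in eRBC and in aRBC than its mean scaled FPKM in erythroblasts. That bound reached 979-fold for ENSGALG00000002197 and had a median of 73.7-fold. It used the mean of all 3 erythroblast replicates. Without erythroblast replicate 1 the lowest unscaled erythroblast level fell from 90.6 to 38.4, and the lowest bound falls with it. Against fibroblasts, the fibroblast means were 57.9 to 7764 times the cutoff, with a median of 229 times. These bounds rest on the cutoff and on the cell-number factors. They carry the replicate spread of the means, a median coefficient of variation of 25.2% in erythroblasts and 28.6% in fibroblasts. No value of these genes in red blood cells was used here, so no spread on that side enters.

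The factors also lower every gene of the red blood cells relative to the cultured cells. The lower bound of the factor, with 1 factor per cell type, was 0.00253 in aRBC and 0.0111 in eRBC, against 0.171 in erythroblasts. With that bound the cutoff comes to an unscaled FPKM of 118 in aRBC and 27.1 in eRBC. The second estimates of the factor, 0.0121 and 0.0199, put it at 24.7 and 15.0. The unscaled erythroblast levels of the 200 genes ran from 90.6 to 1715 with a median of 129.

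For eRBC the cutoff of 27.1 was below the erythroblast level of all 200 genes, by 3.34-fold at the lowest gene and 4.76-fold at the median gene. The rule chose genes that were high in erythroblasts and unlisted in eRBC, so this describes the members and tests nothing. The count stayed at 200 with the lowest single-replicate bound of the eRBC factor, which puts the cutoff at 29.2, and without erythroblast replicate 1, where the lowest gene was at 38.4. The 10 highest genes of a sample took 87.5% ± 2.46 of the summed scaled FPKM in eRBC and 36.6% ± 10.6 in erythroblasts (SD, n = 3 each). Their part in the relative level of the 200 genes was not tested.

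For aRBC the count was smaller. At the cutoff of 118, which assumes 1 factor for all aRBC samples, 117 of the 200 (58.5%) had a higher unscaled erythroblast level, and 83 did not, so that for those 83 an unchanged level relative to the library could still be below the aRBC cutoff. The rule ordered the list by erythroblast level and ended it at 200 genes, so this count describes the members and tests nothing. The share over other erythroblast genes is not given here. Without erythroblast replicate 1 the count was 107. With the lowest single-replicate bound, a cutoff of 139, it was 88, and with the second estimate, a cutoff of 24.7, all 200 were above.

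**Figure D3:**
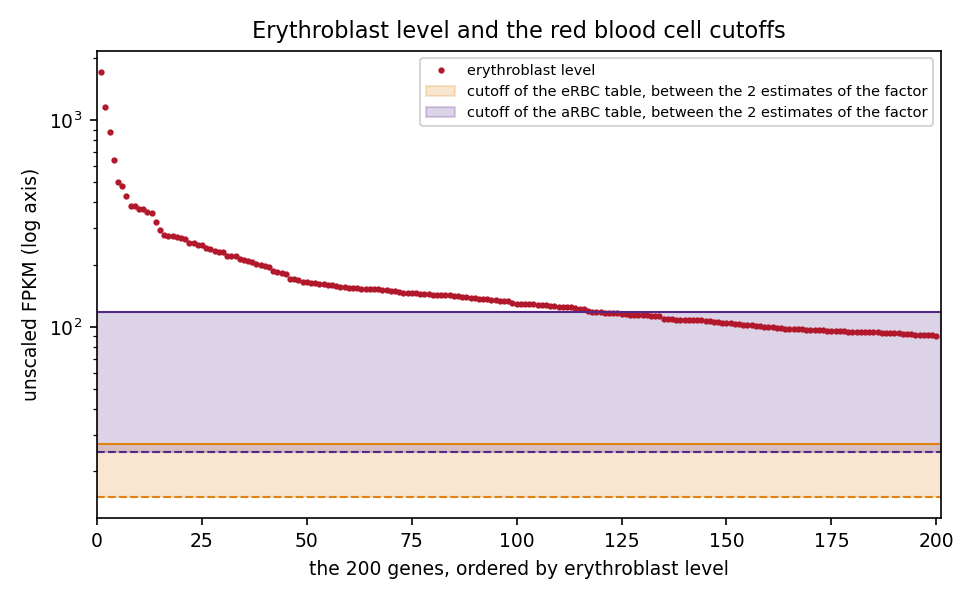
Unscaled FPKM (log axis) in erythroblasts of the 200 genes in order of level, with bands for the unscaled level that the cutoff of each red blood cell table stands for, from the second estimate of the factor (dashed) to its lower bound (solid). All 200 points lie above the eRBC band, which ends at 27.1, and 117 lie above the end of the aRBC band at 118.

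The list was then set among erythroblast genes of the same level. All 40 genes above ENSGALG00000002197 in the erythroblast table were in at least 1 red blood cell table. From there down to the last member, at rank 691, lay 651 genes, of which 57.3% were in the eRBC table, 31.0% in the aRBC table and 38.7% in neither. Over the whole erythroblast table, 87.2% of genes were absent from the eRBC table and 92.6% from the aRBC table. The 200 genes made up 3% of the first 100 ranks, 18.0% of ranks 101 to 200, 24.0% of ranks 201 to 300, and between 35.0% and 46.2% of each later bin.

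**Figure D4:**
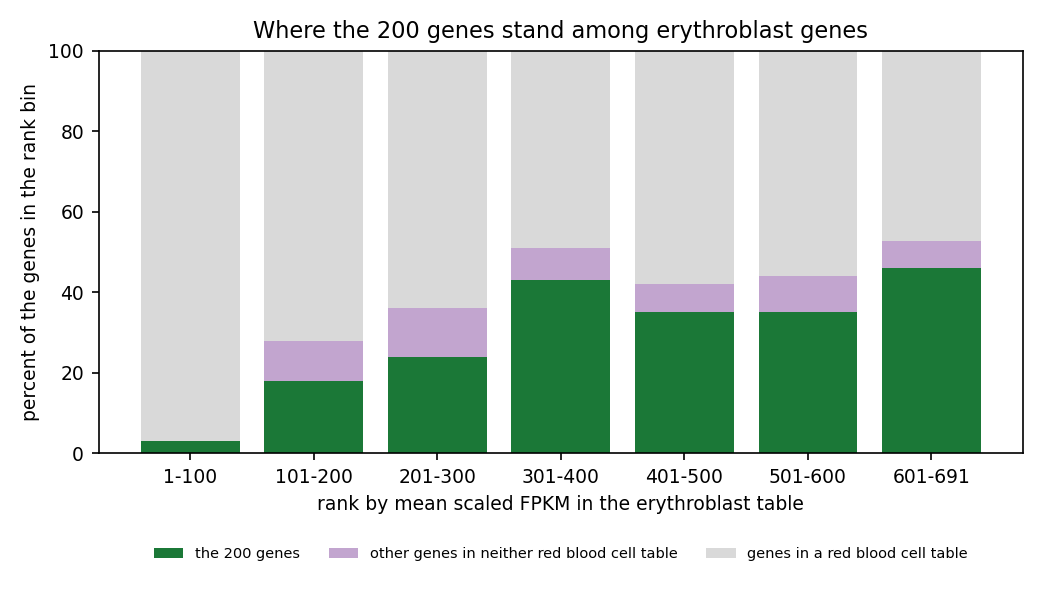
Percent of erythroblast genes in each bin of rank by mean scaled FPKM that are among the 200 genes (green), are other genes in neither red blood cell table (purple) or are in at least 1 of them (grey). The 200 genes rise to 46.2% of ranks 601 to 691.

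Among these 651 genes, 541 had an erythroblast mean at or below the fibroblast mean. The 200 members are 37.0% of them, and 341 were in a red blood cell table. Of the 106 genes of that level that were higher in erythroblasts than in fibroblasts, 50 (47.2%) were in neither red blood cell table. The difference between these shares was not tested.

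Genes of the same erythroblast level that did appear in red blood cells were mostly low there. The 373 in the eRBC table had a median of 0.917 scaled FPKM in eRBC, 41.1-fold below their erythroblast level by the median ratio, and 127 of them were under 0.6. In 128 of the 373 the eRBC level relative to erythroblasts was at or below 0.0193, the highest bound of the 200 genes. The 202 in the aRBC table had a median of 0.60 scaled FPKM in aRBC, 52.7-fold below by the median ratio, and 101 were under 0.6. The lowest ratios among listed genes were 0.00175 in eRBC and 0.0013 in aRBC, while the bounds of the 200 genes ran from 0.00102 to 0.0193. A listed gene is at or above 0.3, so it cannot fall below the bound for its own erythroblast level.

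The 200 genes had a median recovered length of 2092 bp, with quartiles of 1260 and 2812 bp and a range of 65 to 7839 bp. Length was not part of the rule, although FPKM divides by it. The 399 genes of the same erythroblast level in a red blood cell table were shorter, with a median of 1693 bp, and the 176 of them in both tables had 1477.5 bp. The 50 of that level that were higher in erythroblasts and in neither table had 2244 bp, and all genes in both culture tables had 2329 bp. Genes under 500 bp made up 8% of the 200, 14.8% of the 399 and 4% of the 50. Recovered lengths are lower estimates for single genes, and these differences were not tested.

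The 16 members under 500 bp had a median of 19.0 scaled FPKM in erythroblasts and 51.6 in fibroblasts, against 23.0 and 70.7 for the 184 longer members. Of the 16, only 1 was among the 50 highest of the 200 by erythroblast level. The limma fit called 9 of the 16 lower in erythroblasts, against 66.0% of all 200 members and 78.5% of all genes tested. Reads of the 16 in a library ran from 8 to 9614, while no longer member had fewer than 135. Their median coefficient of variation was 27.6% in erythroblasts and 28.8% in fibroblasts, against 25.2% and 28.6% for the longer members.

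Replicates of erythroblasts spread the list in both directions. Replicate 1 was the highest of the 3 in 115 of the 200 genes and the lowest in 81. It was more than 2-fold above the mean of replicates 2 and 3 in 31 genes and more than 2-fold below it in 23. The median log2 ratio was 0.18 over the members, 0.07 over the 651 genes of their level and 0.25 over all genes above 0 in the table. Replicates 2 and 3 were within 1.5-fold of each other for all 200.

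The member with the largest shift down had 5.37 scaled FPKM in erythroblast replicate 1, against 69.5 and 67.1 in replicates 2 and 3. The member with the largest shift up had 42.4 in replicate 1, against 6.72 and 6.46 in replicates 2 and 3. The coefficient of variation over 3 replicates had a median of 25.2% for the members in erythroblasts and 25.5% for the 651 genes of their level.

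Fibroblast replicate 2 shifted the list mostly one way. It was the highest of the 3 in 144 of the 200 genes and the lowest in 43. It was more than 2-fold above the mean of replicates 1 and 3 in 58 genes, and more than 2-fold below it in 3. The median log2 ratio was 0.56 over the members, 0.43 over the genes of their erythroblast level and 0.03 over all genes above 0 in the fibroblast table. It was 0.05 over the 50 genes of that level that were higher in erythroblasts and in neither red blood cell table. The 3746 genes of both tables with a fibroblast mean at or above the lowest of a member had a median of 0.14. The rule required a fibroblast mean at or above the erythroblast mean, and this library is part of that mean.

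**Figure D5:**
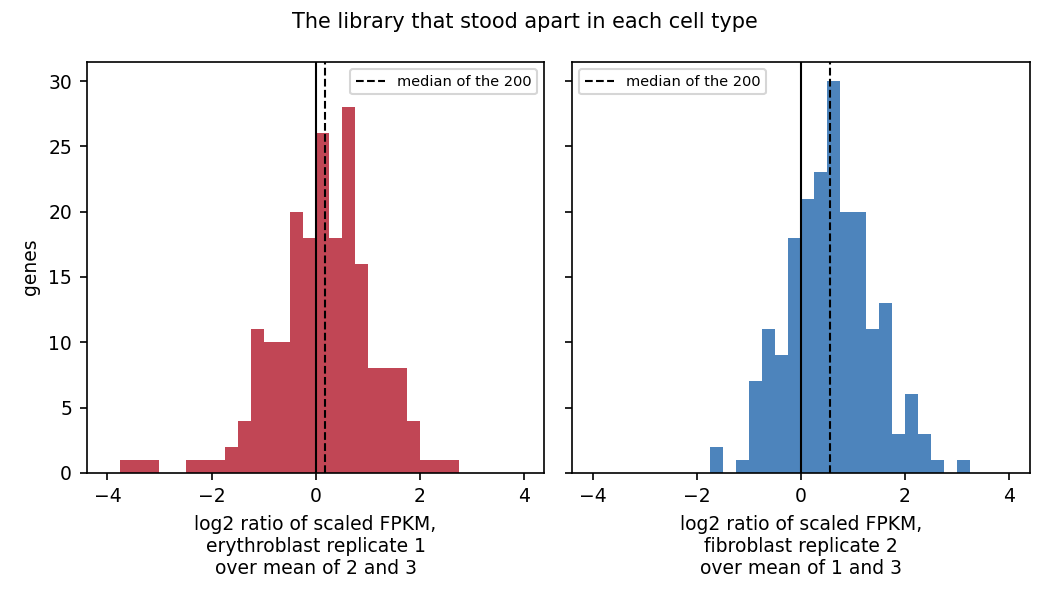
Numbers of genes by log2 ratio of scaled FPKM, for erythroblast replicate 1 over the mean of replicates 2 and 3 (left) and fibroblast replicate 2 over the mean of replicates 1 and 3 (right), for the 200 genes. The dashed medians are at 0.18 and 0.56.

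Genes shifted up in fibroblast replicate 2 tended to be shifted up in erythroblast replicate 1 as well, with a Spearman's rho of 0.281 and a Pearson's r of 0.273 between the log2 ratios across the 200 genes. The relation is weak and describes these libraries only. Both libraries enter the means that the rule compared, so the choice of genes can shape it, which was not tested. Over the 9442 genes of the limma fit, deviations from the cell type's mean had a Pearson's r of 0.134 between these libraries. The labels name no batch, date or culture that these 2 libraries share.

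The list depended on single libraries to a moderate degree. The rule chose 164 of the 200 again without erythroblast replicate 1 and 190 without fibroblast replicate 2, and 184 to 197 without any other library. With the median of the 3 replicates in place of the mean it chose 163. Ranking by recovered reads, which favours long genes, chose 107. Without erythroblast replicate 1, 8 of the 200 had an erythroblast mean above the fibroblast mean. Without fibroblast replicate 2 there were 10 such genes, and without both libraries 15.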

How the data were processed

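The authors deposited 1 table of FPKM per cell type, scaled to cell number per the file names, with a column per replicate and the mean. Reads were processed with STAR 2.7.2b and featureCounts on GRCg6a, per the submitters' processing notes, which give no role or setting. The cell-number factor is not given in the sources used here. Libraries came from 1 stranded total RNA kit, per the labels' protocols.

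The members and lists were chosen with earlier results of these data known. Columns were matched to samples by description, with 0 left over. Reads and lengths were recovered because each FPKM comes from whole reads, a constant of the sample and the gene's length, and 13796 of 13889 genes (99.3%) gave reads within 0.0002 of whole numbers plus rounding. The recovery and the limma fit below were tested on simulated data. The simulated fit gave all genes the same spread, which these data do not have.

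Erythroblasts and fibroblasts were compared with limma 3.58.1 in R 4.3.3 (mean-variance trend, the 6 samples, no replicate block, mean of at least 1, pseudocount 1, two-sided). P-values measure the spread between these samples, which may be technical. Other values come from Python 3.11.15 and pandas 2.3.3.

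The RefSeq table used here has 25635 genes and an Ensembl ID for 0 of them. By a rule written down with the design, 4 IDs are named: the highest erythroblast mean, the lowest log2 fold change, and the highest 2 log2 fold changes after median centring. Other genes are given by rank. Alternatives were another pseudocount, no filter, equal sums, median centring, a replicate block, leaving out each replicate, and other factor estimates.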

Additional observations from a re-analysis of the deposited data

How the results depend on the processing

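The scale decided the comparison of erythroblasts with fibroblasts. With equal sums the changed genes numbered 2587 and with median centring 2755, against 7554 as deposited, and voom on recovered reads gave 3246. The members called lower in erythroblasts numbered 16 (8%), 19 (9.5%) and 14 (7%) in the same order, against 132 (66%) as deposited. Of all genes tested, 16.2%, 12.9% and 15.9% were called lower, against 78.5% as deposited. The members' median log2 fold change of -1.42 turned to 0.53 with equal sums and 0.45 with median centring. Their median log2 ratio of means was -1.5 as deposited and 1.04 on unscaled FPKM, against -2.08 and 0.464 over all genes in both tables. The first 2 scalings also turned ENSGALG00000002197 to 1.48 and 1.34, ENSGALG00000015105 to 1.91 and 1.87, and ENSGALG00000032590 to 1.95 and 1.85, but not ENSGALG00000004184. A pseudocount of 0.1 and no filter kept direction and threshold for these 4 genes.

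Leaving out 1 replicate gave 7357 to 7568 changed genes, a members' median of -1.61 to -1.21 and 164 to 197 members chosen again. It gave shares of 4.25% to 5.53% in erythroblasts and 4.88% to 5.64% in fibroblasts. Members called lower then numbered 113 to 136 (56.5% to 68%), against 76.8% to 79.2% of all genes tested. The log2 fold change ran from -0.86 to 0.15 for ENSGALG00000002197, from -0.060 to 0.043 for ENSGALG00000015105, from -0.16 to 0.14 for ENSGALG00000032590 and from -6.59 to -6.17 for ENSGALG00000004184. Without the 10 highest genes the shares were 7.92% and 7.66%. By reads the share was 7.37% in erythroblasts and 5.85% in fibroblasts. Ranking by reads kept 107 members. The second estimate of the factor put 200 members above the aRBC cutoff in place of 117. The causes were not tested.

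The labels do not say what a replicate number shares, and same-numbered samples deviated together at r of -0.104, -0.137 and 0.111 across genes, so they were not taken as pairs. With a replicate block 135 members (67.5%) were called lower, against 78.7% of all genes tested, and 7582 genes changed. Depth limits the 7 short members with under 100 reads in a library.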
